A study of Homo sapiens with 12 samples.

Results

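The difference between the androgen responses of sh_scramble and sh_TMEFF2 LNCaP cells was measured gene by gene, as the response to dihydrotestosterone (DHT) in sh_TMEFF2 minus the response in sh_scramble, over all 12 libraries of the series. LNCaP is a human prostate cancer cell line that carries an androgen receptor and depends on androgen for much of its gene expression. The cells carried a U6-driven short hairpin RNA in the pLKO.1-puro lentiviral vector, either against TMEFF2, a transmembrane protein of prostate and brain, or with a scrambled sequence, and were selected with puromycin. About 17 days into expression of the hairpin they were kept for 24 h in medium with charcoal-stripped serum, which holds little androgen, and then received 10 nM DHT or ethanol for 24 h. The 4 groups, sh_scramble without DHT, sh_scramble with DHT, sh_TMEFF2 without DHT and sh_TMEFF2 with DHT, have 3 libraries each. All were selected pools of cells, and the 3 libraries of a group came from 3 separate treatments of cells from 2 transductions, without a statement of which library belongs to which. Which TMEFF2 hairpin the sequenced cells carried is not given in the sources used here, so an effect of 1 hairpin's sequence and an effect on TMEFF2 cannot be told apart.

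Androgen enters the cell and binds the androgen receptor, a nuclear receptor that moves to the nucleus and raises or lowers genes near its binding sites. In prostate epithelium it raises secretory products, lipid synthesis and the machinery of the endoplasmic reticulum (ER) that folds and ships secreted proteins, and it lowers a second set of genes. A response that differs between lines can be smaller, absent, new or turned around. Each of these was counted separately.

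Levels are given as CPM, the share of a gene in the counts of its library on a common scale, made here from the deposited estimated counts after scaling libraries by the trimmed mean of M values. A response is the log2 ratio of the level with DHT to the level without it, and the difference is the response in sh_TMEFF2 minus that in sh_scramble, both from 1 edgeR fit over the 12 libraries. A gene was called for the difference at an adjusted p of at most 0.05, and a response to DHT, or a level between lines, counted as called only if it also reached 1.5-fold. The libraries held 19450866 to 22612046 counts (median 21194622), and 15419 of 34643 gene symbols passed the filter on low counts.

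TMEFF2 itself was at 77.8, 73.8 and 103 CPM in sh_scramble and 68.6, 39.3 and 81.7 CPM in sh_TMEFF2 without DHT. With DHT it was at 173, 117 and 169 CPM and 142, 90.1 and 114 CPM. The groups overlapped at both DHT levels, and the lower level in sh_TMEFF2 did not pass the test (log2 -0.43 without DHT, adjusted p = 0.503, and -0.41 with DHT, adjusted p = 0.304), which does not show that the levels were equal. TMEFF2 was lower in sh_TMEFF2 in 6 of 6 comparisons of libraries with the same replicate number, although the numbers were not shown to pair the libraries. Its response to DHT was 0.85 in sh_scramble and 0.87 in sh_TMEFF2, a difference of 0.019 ± 0.35 (SE). All 10 luminal prostate markers looked for were measured, and their summed level ran from 8034 to 8314 CPM in sh_scramble and from 5499 to 5897 CPM in sh_TMEFF2 without DHT, and from 12980 to 13530 CPM and 6093 to 7153 CPM with DHT. This sum was lower in sh_TMEFF2 and higher with DHT, and its part in the results that follow was not tested. The members were divided. DHT raised 4 and lowered 3 in sh_scramble (5.45% and 6.45% of all genes) and raised 2 and lowered 1 in sh_TMEFF2 (3.28% and 1.60%). Their median response was -0.036 in sh_scramble, and their median level without DHT was -0.13 in sh_TMEFF2 against sh_scramble (log2). Basal markers summed to at most 1.85 CPM and neuroendocrine markers to at most 4.48 CPM in any library. Fibroblast markers summed to 22.7 to 22.8 CPM without and 12.7 to 13.8 CPM with DHT in sh_scramble, and to 24.5 to 36.4 and 17.7 to 21.8 CPM in sh_TMEFF2, with 1 of 3 tested members called for the difference (COL3A1, 2.36 ± 0.48). Endothelial markers summed to 12.9 to 29.7 CPM and immune markers to 8.33 to 13.0 CPM over the 12 libraries, with 0 of 2 tested members called in each by edgeR's quasi-likelihood test. In bulk RNA, fewer cells with a transcript and less transcript per cell cannot be told apart.

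The response to DHT differed between the lines for 761 of 15419 genes (4.94%), and for 507 of them (3.29%) the value in sh_TMEFF2 was the lower one, against 254 (1.65%) with the higher value. Most of the 761 were genes that DHT changed in sh_scramble and changed less in sh_TMEFF2. In sh_scramble alone, 290 were called as raised (lost raised) and 154 as lowered (lost lowered), and 83 responded in both lines with a smaller response in sh_TMEFF2 (kept smaller). Of 374 genes called in the same direction in both lines, 93 had the larger response in sh_TMEFF2. Of these, 0 passed the test of the difference by edgeR's quasi-likelihood test and 3 had an unadjusted p under 0.05. Among the genes that DESeq2 or limma-voom itself called in both lines, 0 with the larger response in sh_TMEFF2 passed. Such genes numbered 2 for responses by adjusted p alone and 1 without sh_TMEFF2 without DHT replicate 3. Over all genes, 2704 had an unadjusted p under 0.05 for the difference. A lost gene is one whose response was called at 1.5-fold in sh_scramble and not in sh_TMEFF2, and 64 of the 290 and 29 of the 154 passed the adjusted p in the same direction in sh_TMEFF2 below 1.5-fold. Responses called in sh_TMEFF2 alone numbered 16 raised and 6 lowered, and 4 genes moved in opposite directions. The 16 were 58 with DESeq2, and between 2, without sh_TMEFF2 without DHT replicate 2, and 86, without replicate 3 of that group, when 1 library was left out. The remaining 208 passed the test of the difference without a called response in either line. With library size alone in place of the trimmed mean, the share with a higher value among the called genes was 48.18%, against 33.38%, with 370 higher and 398 lower. The median difference over all genes then moved from 0.0062 to 0.074.

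**Figure D1:**
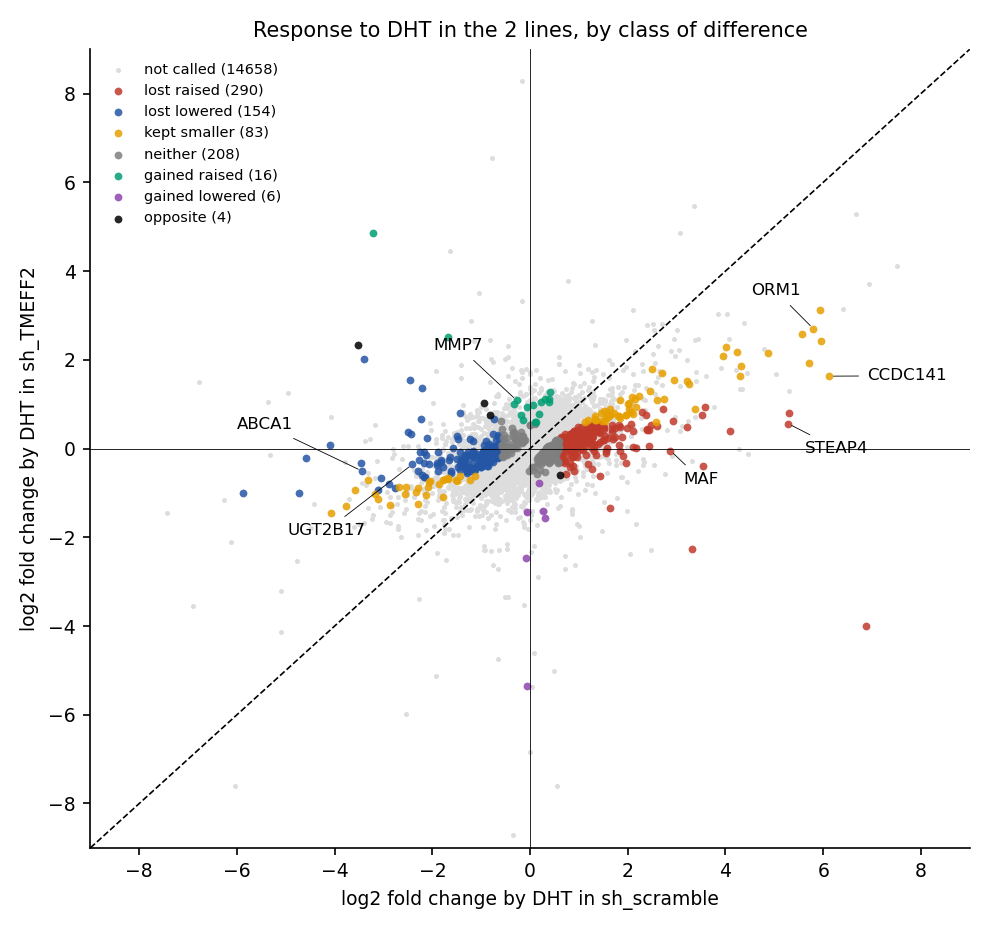
Response to DHT in sh_scramble (horizontal axis, log2) against that in sh_TMEFF2 (vertical axis, log2) for the 15419 genes tested, coloured by class of difference, with the dashed line marking equal responses. The 290 lost raised and 154 lost lowered genes lie near 0 on the vertical axis, and the 83 kept smaller genes lie between 0 and the dashed line.

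The 290 lost raised genes had a median response of 0.89 in sh_scramble and 0.18 in sh_TMEFF2 (log2), and the 154 lost lowered genes had medians of -1.13 and -0.20. For both classes the median in sh_TMEFF2 had the sign of that in sh_scramble. Without DHT the level differed between the lines at 1.5-fold for 88 of all genes tested (0.571%, with 0.298% higher and 0.272% lower in sh_TMEFF2) and for 21 of the 761, 13 higher and 8 lower. With DHT it differed for 1044 (6.77%, with 3.03% higher and 3.74% lower) and for 426 of the 761, 142 higher and 284 lower. All 210 lost raised genes with a called level with DHT were lower in sh_TMEFF2, and all 98 such lost lowered genes were higher. These level comparisons use the same libraries as the difference, and each gene's difference is the level with DHT minus the level without it. STEAP4 is an example, with a level in sh_TMEFF2 against sh_scramble of -0.25 without DHT (adjusted p = 0.829) and -4.97 with DHT (adjusted p = 5.02e-07).

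**Figure D2:**
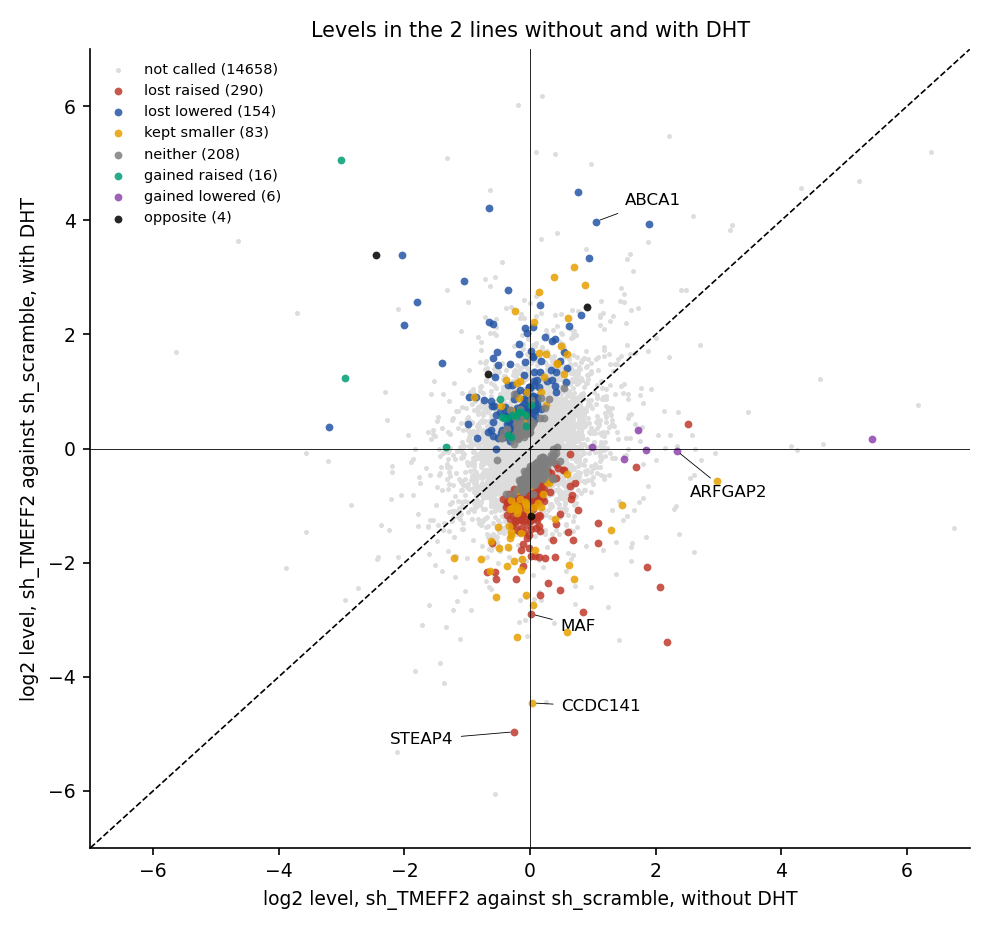
Level in sh_TMEFF2 against sh_scramble without DHT (horizontal axis, log2) and with DHT (vertical axis, log2), coloured as in the plot of responses, with the dashed line marking equal values and 6 of the genes tested beyond the axes. Called genes spread along the vertical axis, where 426 of 761 passed the test of the level, and most stay near 0 on the horizontal one, where 21 passed.

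The genes with the strongest loss included STEAP4 and MAF. STEAP4, a metalloreductase of membranes, lies on chromosome 7, 88270892 to 88306894, minus strand (GRCh38), where its exons overlap an antisense transcript. MAF, a transcription factor of the basic leucine zipper family, lies on chromosome 16, 79585843 to 79600737, minus strand. The 250 bases before the start sites of these genes are shown because they had the largest differences among lost raised genes with a promoter in the reference. MMP7 and CDK1, described later, are shown beside them as genes whose response appeared in sh_TMEFF2, MMP7 for the largest difference among those with a promoter and CDK1 chosen after its values were seen. Sequences are from RefSeq on GRCh38.p14, 5′ to 3′ on the gene's own strand, cut where the GENCODE gene begins. Capitals mark matches, on either strand, to TTTGAA (the cell cycle homology region, CHR), CCAAT, the E2F forms TTTGGCGC and TTTCCCGC, the androgen receptor box AGAACA, the ER stress box CCACG and the forkhead site TGTTTAC.
STEAP4 (chr7:88306895-88307144, minus strand): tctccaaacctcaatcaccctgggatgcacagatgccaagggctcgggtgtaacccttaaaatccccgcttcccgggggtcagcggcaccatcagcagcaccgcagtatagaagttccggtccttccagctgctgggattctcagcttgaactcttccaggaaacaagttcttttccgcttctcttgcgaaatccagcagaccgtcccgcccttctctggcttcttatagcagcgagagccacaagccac
MAF (chr16:79600738-79600987, minus strand): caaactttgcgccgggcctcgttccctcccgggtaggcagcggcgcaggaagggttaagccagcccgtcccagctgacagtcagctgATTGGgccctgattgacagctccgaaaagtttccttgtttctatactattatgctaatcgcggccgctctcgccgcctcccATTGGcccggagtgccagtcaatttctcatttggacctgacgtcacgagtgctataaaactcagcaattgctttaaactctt
MMP7 (chr11:102530751-102530997, minus strand): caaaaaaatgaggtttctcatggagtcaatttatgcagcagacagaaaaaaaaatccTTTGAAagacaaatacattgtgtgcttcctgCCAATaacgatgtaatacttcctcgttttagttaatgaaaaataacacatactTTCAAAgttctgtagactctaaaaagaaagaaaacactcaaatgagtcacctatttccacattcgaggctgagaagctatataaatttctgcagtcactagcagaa
CDK1 (chr10:60778081-60778330, plus strand): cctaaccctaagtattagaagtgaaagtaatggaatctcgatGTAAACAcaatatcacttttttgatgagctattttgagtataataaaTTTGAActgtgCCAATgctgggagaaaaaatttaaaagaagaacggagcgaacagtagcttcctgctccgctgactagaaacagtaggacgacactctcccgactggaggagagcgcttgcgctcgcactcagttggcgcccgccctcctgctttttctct
The STEAP4 window held none of these letters, and the MAF window held 2 CCAAT boxes, both on the other strand. The CDK1 window held a CHR, a CCAAT box and a forkhead site. The androgen receptor box was present in 6.4% of 236 lost raised promoters, in 7.8% of all 11010 promoters matched to a tested gene, in 12.1% of 107 lost lowered and in 10.3% of 58 kept smaller promoters. The CCAAT box was present in 47.0% of lost raised promoters and in 34.9% of all. A match describes these letters in this window alone.

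STEAP4 stood at 1.54, 1.34 and 1.13 CPM in sh_scramble without DHT and at 42.5, 62.7 and 51.2 CPM with DHT. In sh_TMEFF2 it was at 0.913, 0.974 and 1.49 CPM without and 0.926, 1.69 and 2.36 CPM with DHT. The 3 sh_scramble libraries with DHT were high and the other 9 low, and the difference of responses was -4.72 ± 0.43 (SE, adjusted p = 9.5e-05). MAF went from 10.7, 13.8 and 8.66 to 77.3, 90.5 and 75.0 CPM in sh_scramble and from 7.79, 14.2 and 11.5 to 6.85, 13.9 and 11.7 CPM in sh_TMEFF2. Here too the 3 sh_scramble libraries with DHT stood above the other 9, with a difference of -2.92 ± 0.36 (adjusted p = 0.000701). SGK1, a serum- and glucocorticoid-inducible kinase that is related to AKT, was at 6.16, 7.66 and 6.75 CPM in sh_scramble with DHT and between 1.62 and 3.32 CPM in every other library, a difference of -2.07 ± 0.28 (adjusted p = 0.00125). The 2 columns that the table gives for each library, summed here, were over 2-fold apart for SGK1 and for CSGALNACT1 in 1 library each.

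Further lost raised genes with large differences were CSGALNACT1 (-2.71), which starts chondroitin sulphate chains, ACSM1 (-2.39), a medium-chain acyl-CoA synthetase, CECR6 (-2.31), AKNA (-2.15), an AT-hook protein, and UGT2B11 (-2.08), a UDP-glucuronosyltransferase. The call of UGT2B11 was lost in 8 of the 12 fits that leave out 1 library, and that of CECR6 in 2. ACSM1 and UGT2B11 differed in level between the lines without DHT (1.08, adjusted p = 0.04, and 2.51, adjusted p = 0.00776). ACSM1 was at 1.18, 1.39 and 1.42 CPM in sh_scramble and 3.22, 2.66 and 2.55 CPM in sh_TMEFF2 without DHT, and UGT2B11 at 9.23, 6.88 and 10.8 and 75.8, 47.9 and 30.3 CPM. Reads can be shared between UGT2B11, UGT2B17 and UGT2B28, close relatives in 1 gene cluster, so the values of all 3 are uncertain. AKNA is uncertain for another reason, since its columns were over 2-fold apart in 2 libraries.

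Of 30 genes known to be induced by androgen in prostate cells, 21 had a lower response in sh_TMEFF2 and 0 a higher one, against a share of 3.29% lower among all genes tested. Their median response was 2.07 in sh_scramble, where 29 of 30 were raised (5.45% of all genes, with 11.9% responding in either direction and 6.45% lowered), and 0.72 in sh_TMEFF2, where 17 were raised (3.28% of all genes, with 4.88% responding and 1.60% lowered). The 21 divided into 10 lost and 11 kept smaller, and the median difference of the list was -1.05, against 0.0062 over all genes. Leaving out any 1 library gave 18 to 22 lower. Of all 840 genes that DHT raised in sh_scramble, 346 (41.19%) were called for the difference. The list, like the others, was chosen with earlier results of these data known. Lost members included PMEPA1 (-1.94), a membrane inhibitor of TGF-beta signalling, ELL2 (-1.51), a transcription elongation factor, CAMKK2 (-1.03), a calcium-dependent kinase upstream of AMPK, and CREB3L4 (-1.0), a membrane-bound transcription factor of the ER. Kept members included SLC45A3 (-1.38), SORD (-1.07), the sorbitol dehydrogenase, and ABCC4 (-1.25), an exporter.

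ACSL3, which activates long-chain fatty acids, shows the kept pattern. It was at 179, 218 and 173 CPM without and 1185, 1231 and 1007 CPM with DHT in sh_scramble. In sh_TMEFF2 it was at 162, 167 and 186 and 221, 279.8 and 286 CPM, so that all libraries with DHT lay above those without it, and those of sh_scramble lay far above those of sh_TMEFF2. The difference was -1.98 ± 0.16 (adjusted p = 8.37e-05).

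The 3 members of the list with a difference above 0 were the kallikreins KLK2 (0.29 ± 0.31, adjusted p = 0.706), KLK3 (0.49 ± 0.30, adjusted p = 0.459) and KLK4 (0.23 ± 0.19, adjusted p = 0.616), secreted proteases of which KLK3 encodes prostate-specific antigen. None of the 3 passed the test of the difference. KLK2 was at 269.8, 219 and 266 CPM in sh_scramble and 33.1, 20.7 and 44.2 CPM in sh_TMEFF2 without DHT, and at 1517, 1272 and 1512 and 182, 218 and 283 CPM with DHT. Its levels were thus lower in sh_TMEFF2 with no overlap at either DHT level, and its responses were 2.51 and 2.80. KLK2 and KLK3 are related paralogues, between which counts can be shared.

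The luminal keratins, chosen after their values were seen, had a lower response in sh_TMEFF2. KRT8 and KRT18 form the intermediate filaments of luminal epithelium and have many processed pseudogenes that can take part of their reads. KRT8 was at 469, 444 and 431 CPM without and 1272, 1085 and 1059 CPM with DHT in sh_scramble. The sh_TMEFF2 libraries were at 470.3, 545 and 461 and 427, 492 and 413 CPM. The 3 sh_scramble libraries with DHT were above all others, and the remaining 3 groups overlapped, with a difference of -1.49 ± 0.13 (adjusted p = 8.37e-05). KRT18 had a response of 1.13 in sh_scramble and 0.064 in sh_TMEFF2 (difference -1.07 ± 0.096, adjusted p = 8.59e-05). Of the 10 luminal markers 3 were called lower and 2 higher, against 3.29% and 1.65% of all genes. A difference above 0 was seen for 6 of them, and their median difference was 0.074.

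**Figure D3:**
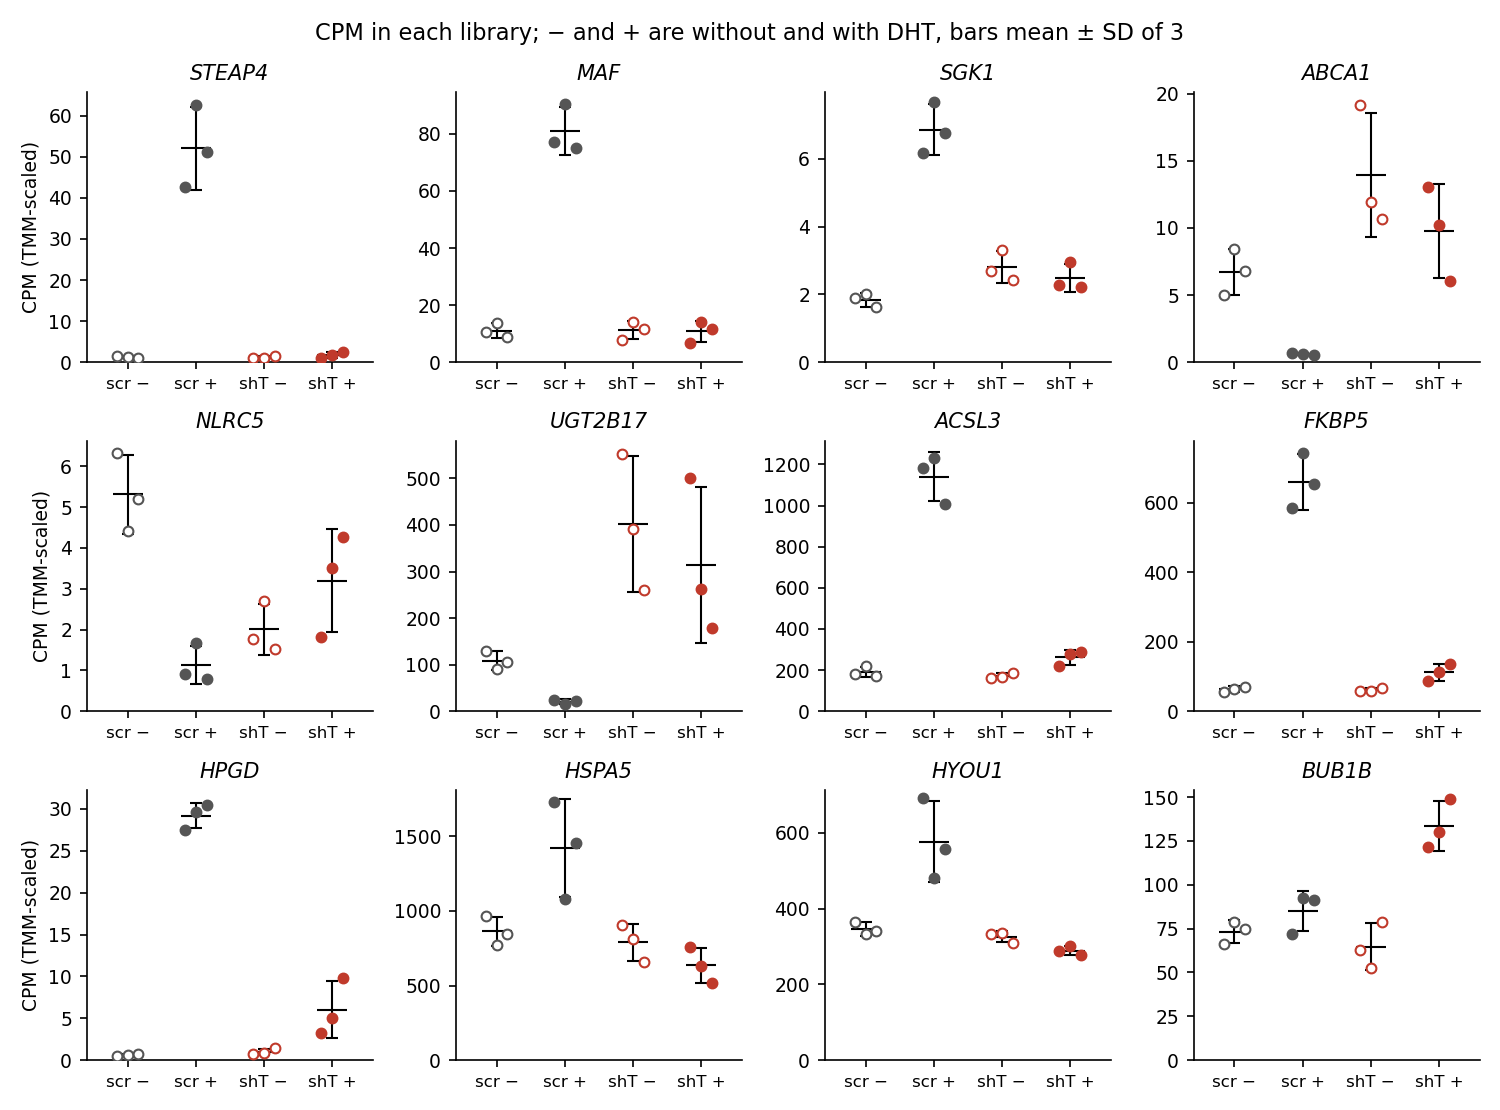
CPM in each of the 12 libraries for 12 genes, each panel on its own linear axis from 0, with sh_scramble (scr) in grey and sh_TMEFF2 (shT) in red, open points without and filled points with DHT, and bars for the mean ± SD of 3 libraries. For STEAP4, MAF and SGK1 the 3 sh_scramble libraries with DHT stand alone, whereas ABCA1 and UGT2B17 fall with DHT in sh_scramble and not past the test in sh_TMEFF2, and BUB1B is highest in the 3 sh_TMEFF2 libraries with DHT.

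The unfolded protein response raises chaperones and degradation factors when the load of unfolded protein in the ER grows. It works through the sensors ATF6, ERN1 (IRE1) and EIF2AK3 (PERK), and ATF6 and XBP1 act on a paired promoter element, CCAAT and CCACG set 9 bases apart. Of 27 genes of this response, 20 had a lower DHT response in sh_TMEFF2 (3.29% of all genes) and 0 a higher one, and the difference was below 0 for 27 of 27. DHT raised 16 of them in sh_scramble (5.45% of all genes) and 0 in sh_TMEFF2 (3.28%) by edgeR's quasi-likelihood test at 1.5-fold, with median responses of 0.72 and 0.0042, and 3 had a response above 0 in sh_TMEFF2 at an unadjusted p under 0.05. DESeq2 called 23 for the difference. The number called lower fell to 12 without any 1 of 5 libraries, namely sh_scramble without DHT replicate 2, sh_scramble with DHT replicate 1, sh_TMEFF2 without DHT replicate 1 and sh_TMEFF2 with DHT replicates 2 and 3, and to 13 without sh_TMEFF2 without DHT replicate 2.

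HSPA5, the main ER chaperone of the HSP70 family (BiP), was at 969, 769.9 and 847 CPM without and 1730.3, 1077 and 1452 CPM with DHT in sh_scramble. The corresponding levels in sh_TMEFF2 were 904, 810.4 and 656 CPM and 755, 631 and 517 CPM. The sh_scramble libraries with DHT exceeded all others, and those of sh_TMEFF2 overlapped with and without DHT (difference -1.04 ± 0.25, adjusted p = 0.0311). The strongest differences by p were those of DNAJB9 (-1.36 ± 0.18) and DNAJC3 (-0.84 ± 0.12), HSP40 co-chaperones of the ER, and HYOU1 (-0.91 ± 0.15), a large HSP70-type chaperone. MANF (-1.12), HERPUD1 (-1.06) and SDF2L1 (-1.01) were also lost raised. Of the sensors, ERN1 had a difference of -0.67 (adjusted p = 0.0679), EIF2AK3 of -0.28 (adjusted p = 0.631) and ATF6 of -0.038 (adjusted p = 0.873), and none of these passed. ATF4 targets, which belong to the PERK arm, gave 1 lower and 0 higher of 24, against 3.29% and 1.65% of all genes, with a median of -0.091. That gene was VLDLR (-0.76 ± 0.19, adjusted p = 0.0412), a lipoprotein receptor, whose call was lost in 8 of the 12 fits that leave out 1 library.

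The complete paired element was searched on both strands in the 250 bases before 11010 start sites, a search added after the results were seen. It was present in 15 promoters. Of these 15 genes 9 were called for the difference, each with a lower response in sh_TMEFF2, against 3.29% of all genes tested, and 12 of 15 had a difference below 0. Of the 15, 6 belong to the unfolded protein response list (CALR, CANX, CRELD2, HSP90B1, HSPA5 and XBP1), whose textbook members are known for this element, so their calls repeat those of the list. Outside the list 3 of 9 were called, FICD (-1.26 ± 0.21), an enzyme that adds AMP to HSPA5, SERP1 (-0.58 ± 0.10), a protein of the translocon, and TRIM5 (-0.65 ± 0.14), an antiviral factor. HSPA5 and FICD are shown, the latter as the called gene with the largest difference among the 15, with capitals marking both boxes of the complete element only.
HSPA5 (chr9:125241383-125241593, minus strand): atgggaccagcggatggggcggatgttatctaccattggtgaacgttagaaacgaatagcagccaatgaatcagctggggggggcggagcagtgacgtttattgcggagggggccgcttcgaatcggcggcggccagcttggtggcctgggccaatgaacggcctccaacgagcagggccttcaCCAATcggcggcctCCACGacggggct
FICD (chr12:108515027-108515276, plus strand): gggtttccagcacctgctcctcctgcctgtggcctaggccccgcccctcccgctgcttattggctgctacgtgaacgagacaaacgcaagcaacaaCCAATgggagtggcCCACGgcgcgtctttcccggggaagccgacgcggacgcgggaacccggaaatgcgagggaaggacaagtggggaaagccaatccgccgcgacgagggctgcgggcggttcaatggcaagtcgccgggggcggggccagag
The element began 66 bases before the RefSeq start of HSPA5 and 154 bases before that of FICD. FICD was at 12.6, 9.86 and 12.1 CPM without and 34.3, 23.2 and 26.3 CPM with DHT in sh_scramble, and at 10.3, 12.1 and 12 and 11.9, 12.2 and 10.5 CPM in sh_TMEFF2. The sh_scramble libraries with DHT lay above the other 9, which overlapped.

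Genes of the translocon, which moves new proteins into the ER, and of the COPI and COPII coats, which carry them to and from the Golgi, gave 23 lower, against 3.29% of all genes, and 0 higher of 32, and 11 lower when a difference of at least 1.5-fold was asked for. Their median response was 0.57 in sh_scramble, where 14 were raised (5.45% of all genes), and 0.052 in sh_TMEFF2. There 0 were raised at 1.5-fold by edgeR's quasi-likelihood test (3.28% of all genes), and 12 had a response above 0 at an unadjusted p under 0.05. DESeq2 called 25 for the difference. The differences with the smallest p were those of SSR3 (-0.96 ± 0.12), a subunit of the translocon-associated protein complex, SEC61G (-0.73 ± 0.088), a subunit of the channel, and KDELR2 (-0.71 ± 0.086), the receptor that returns ER proteins. SEC24D, a COPII coat subunit, had the largest difference of the list at -1.61 ± 0.20 (adjusted p = 0.000789). SSR3 was at 174, 154 and 158 CPM without and 459.6, 403 and 379 CPM with DHT in sh_scramble, and at 183, 182 and 159.9 and 218, 234 and 236 CPM in sh_TMEFF2. Its sh_TMEFF2 libraries with DHT lay above those without, below the 1.5-fold limit.

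Cholesterol synthesis and uptake genes gave 10 lower, against 3.29% of all genes, and 0 higher of 25, and all 25 differences were below 0. DESeq2 called 16 of them. DHT raised 18 in sh_scramble (5.45% of all genes) and 3 in sh_TMEFF2 (3.28%) at 1.5-fold, with median responses of 0.97 and 0.38. In sh_TMEFF2, 14 of the 25 had a response above 0 at an unadjusted p under 0.05. HMGCS1, an early enzyme of the pathway, had a difference of -1.22 ± 0.19, and SQLE, which makes squalene epoxide, one of -0.70 ± 0.12. FDFT1, the squalene synthase, had -0.91 ± 0.17 and MSMO1, a sterol oxidase, -0.85 ± 0.18. Fatty acid synthesis genes gave 9 lower (3.29% of all genes) and 0 higher of 18, among them FASN (-0.97), SCD (-0.59), ACLY (-0.58) and the elongase ELOVL5 (-0.75). The median responses of the fatty acid list were 0.75 in sh_scramble and 0.29 in sh_TMEFF2. There 11 of the 18 had a response above 0 at an unadjusted p under 0.05. ELOVL5 was kept, from 307, 298 and 298 to 1100.4, 1101 and 1045 CPM in sh_scramble and from 246, 243 and 252 to 464, 564 and 556 CPM in sh_TMEFF2, and no 2 of the 4 groups overlapped.

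**Figure D4:**
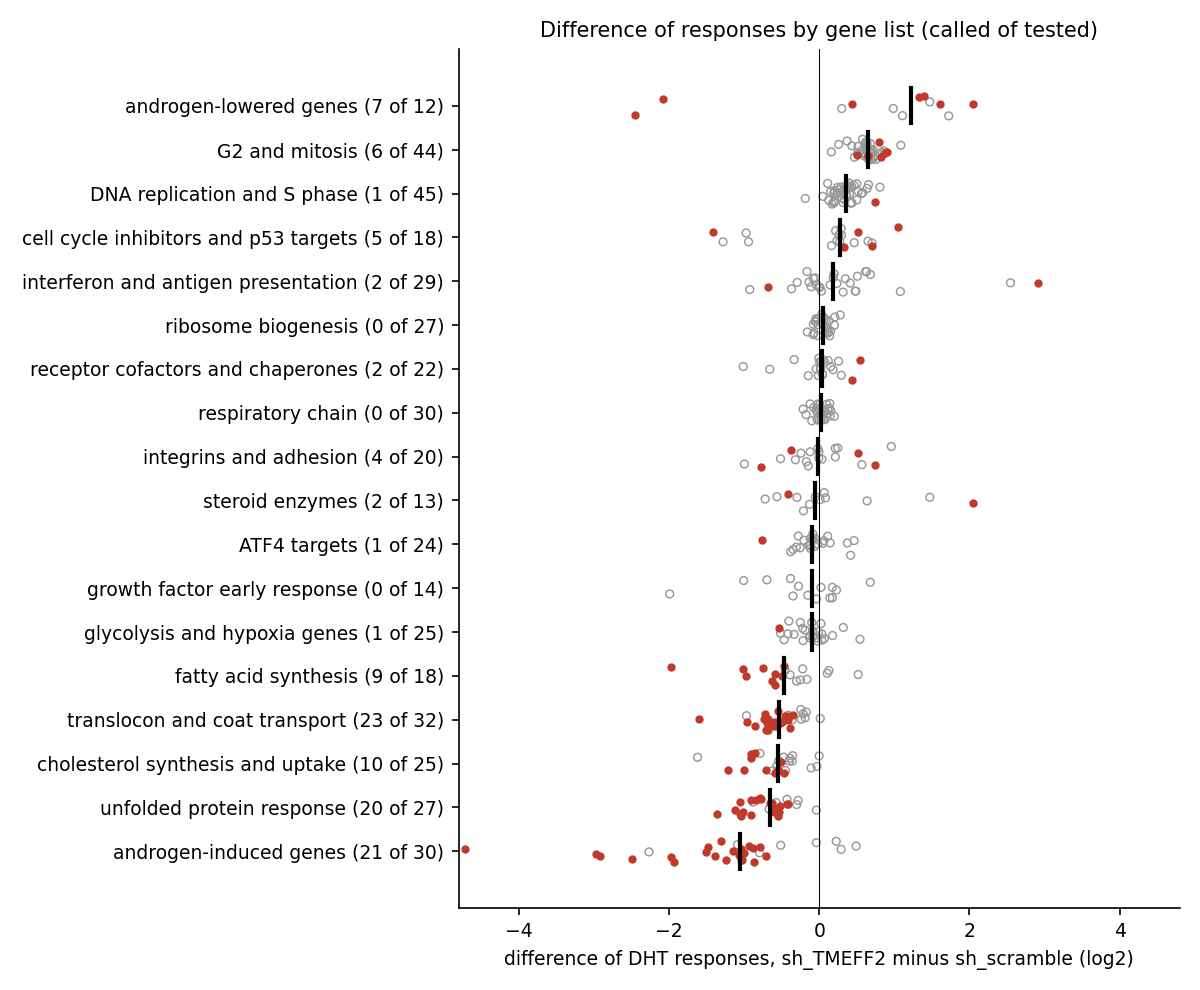
Difference of DHT responses (log2, sh_TMEFF2 minus sh_scramble) for each tested member of 18 gene lists, with red filled points for members called for the difference, open grey points for the others and black bars for list medians. Androgen-induced, unfolded protein response, translocon and coat, cholesterol and fatty acid genes lie to the left of 0, and G2 and mitosis genes (6 of 44 called) and most androgen-lowered genes to the right.

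Among the 154 lost lowered genes, ABCA1 had the largest difference of those above 5 CPM. ABCA1, the exporter that moves cholesterol out of cells (chromosome 9, 104781006 to 104928155, minus strand), was at 4.98, 8.43 and 6.75 CPM without and 0.656, 0.635 and 0.55 CPM with DHT in sh_scramble. Levels in sh_TMEFF2 were 19.2, 11.9 and 10.6 CPM and 13.1, 10.2 and 6.05 CPM. The sh_scramble libraries with DHT were the lowest by far, and those of sh_TMEFF2 overlapped with and without DHT (difference 2.93 ± 0.48, adjusted p = 0.00416). NLRC5, the transactivator of MHC class I genes, had a response of -2.24 in sh_scramble and 0.67 in sh_TMEFF2 (difference 2.91 ± 0.50). Its columns were over 2-fold apart in 1 library. Without DHT it was at 6.34, 4.42 and 5.19 CPM in sh_scramble and 1.78, 2.70 and 1.53 CPM in sh_TMEFF2. This lower level did not overlap but did not pass the test (log2 -1.403, adjusted p = 0.0806). With DHT it was at 0.908, 1.66 and 0.800 CPM and 1.81, 3.51 and 4.27 CPM. The difference for NLRC5 thus includes a lower start in sh_TMEFF2. Its known target B2M, the light chain of MHC class I, moved in the other direction, with 0.99 and 0.30 (difference -0.69 ± 0.14).

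UGT2B17, which attaches glucuronic acid to DHT and so clears it, was at 130.0, 91.0 and 105 CPM without and 24.1, 14.9 and 22.4 CPM with DHT in sh_scramble. In sh_TMEFF2 it was at 554, 392 and 261 and 501, 263 and 178 CPM, above every sh_scramble library at both DHT levels. The difference was 2.05 ± 0.49 (adjusted p = 0.0318), and the level differed without DHT (1.89) as well as with it (3.94). The call of the difference for UGT2B17 was lost in 9 of the 12 fits that leave out 1 library, and its adjusted p was up to 0.0771 over all alternatives run. Other members of this class were GLP1R (2.09), the receptor of glucagon-like peptide 1, PKIB (1.84), an inhibitor of protein kinase A, and SYTL2 (1.79), a factor of vesicle transport.

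A list of 12 genes under androgen repression or glucuronidation of androgens gave 5 higher, against 1.65% of all genes, and 2 lower, with a median difference of 1.22. The 5 fell to 2 without any 1 of 6 libraries (sh_scramble without DHT replicates 1 and 2, sh_scramble with DHT replicates 2 and 3, sh_TMEFF2 without DHT replicate 3 and sh_TMEFF2 with DHT replicate 1) and to 3 without sh_scramble with DHT replicate 1. The higher ones included UGT2B17, ACKR3 (1.60 ± 0.28), an atypical chemokine receptor, CAMK2N1 (1.40 ± 0.12), an inhibitor of the kinase CaMKII, and BCL2. The 2 lower ones, UGT2B11 and UGT2B28 (-2.45 ± 0.45), did not do what the list's name says, since DHT raised them in sh_scramble (2.59 and 4.31). Among cofactors of the androgen receptor, the coactivator NCOA1 was called (0.55 ± 0.092, adjusted p = 0.00503), and FOXA1, a pioneer factor, had a difference of -0.013 ± 0.083 (adjusted p = 0.962).

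Of 18 cell cycle inhibitors and p53 targets, 4 had a higher response in sh_TMEFF2, against 1.65% of all genes, and 1 a lower one, with a median of 0.28. Leaving out any 1 library gave 1 to 3 higher, and the calls of ZMAT3 and BTG2 were lost in 11 and 10 of these 12 fits. SESN1 (1.05 ± 0.23), an inhibitor of mTORC1, BTG2 (0.51 ± 0.12), an antiproliferative factor, TP53INP1 (0.71 ± 0.18) and ZMAT3 (0.33 ± 0.084), both p53 targets, had responses below 0 in both lines that were nearer to 0 in sh_TMEFF2. The level of ZMAT3 in sh_TMEFF2 against sh_scramble was -0.53 without DHT (adjusted p = 0.00117) and -0.20 with it (adjusted p = 0.0432). That of SESN1 was -0.58 without (adjusted p = 0.108) and 0.47 with DHT (adjusted p = 0.0661). For BTG2 it was -0.21 (adjusted p = 0.295) and 0.30 (adjusted p = 0.0298). GADD45B (-1.42 ± 0.26), a stress-inducible gene, was raised in sh_scramble (0.90) and had -0.52 in sh_TMEFF2. CDKN1A, which encodes p21, had -0.61 and -0.31 and did not pass (adjusted p = 0.514).

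The strongest of the 83 kept smaller genes were near 0 without DHT. CCDC141 was at 12.8, 17.3 and 15.3 CPM in sh_scramble with DHT and at 0.602, 0.822 and 0.623 CPM in sh_TMEFF2 with DHT, and at most 0.360 CPM in the libraries without DHT. The 2 groups with DHT did not overlap, with a difference of -4.50 ± 0.61 (adjusted p = 0.00134). Its exons overlap those of TTN on the same strand. CHRNA2, a subunit of nicotinic receptors, reached 72.2, 64.3 and 62.4 CPM in sh_scramble and 6.85, 12.1 and 10.7 CPM in sh_TMEFF2 (difference -2.79 ± 0.38). HPGD, which degrades prostaglandins, reached 27.5, 29.6 and 30.5 and 3.24, 4.97 and 9.79 CPM (difference -2.98 ± 0.58), and ORM1, a plasma glycoprotein, had a difference of -3.09 ± 0.70. ORM1 has the near-identical copy ORM2, which makes its values uncertain. Fold changes of genes so low without DHT depend on few counts there.

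Among genes picked for a called response in sh_scramble, the median response in sh_TMEFF2 was under 50% of that in sh_scramble. Of the genes raised 1.5- to 2-fold in sh_scramble (453), the median gene had 32.9% of its log2 response in sh_TMEFF2, and of those raised over 8-fold (55) it had 44.3%. For lowered genes the shares were 47.5% (523 genes) and 26.3% (43 genes). These shares lean towards small values because of that choice. When genes were picked for their response in sh_TMEFF2 instead, the 506 raised had a median of 0.87 there and 0.50 in sh_scramble, and the 247 lowered -0.88 in both lines. Of the 840 genes raised in sh_scramble, 748 had a response above 0 in sh_TMEFF2, and of the 995 lowered, 891 had one below 0. Over all 15419 genes tested, 4319 had responses of opposite sign in the 2 lines.

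A response called in one line and not in the other was often not shown to differ. DHT raised 840 genes in sh_scramble, of which 627 were not called in sh_TMEFF2, and the difference passed for 290 of these and not for 337 (53.75%). Of 995 lowered genes 830 were called in sh_scramble alone, and the difference did not pass for 676 (81.45%). In sh_TMEFF2, where 506 were raised and 247 lowered, 291 raised genes were called there alone, and the difference did not pass for 275 of them (94.5%). Calls were more frequent for abundant genes, with 9.96% of the 3855 genes with the highest mean CPM and 1.56% of the 3855 with the lowest. The median SE of the difference was 0.11 in the former and 0.55 in the latter.

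The 16 genes called as raised by DHT in sh_TMEFF2 and not in sh_scramble were ASPM, BCL2, BUB1B, CDK1, CENPI, CEP78, CNTLN, FANCD2, G2E3, GPSM2, HELLS, MMP7, NASP, NUSAP1, PCDH17 and SDK2. Of these, 6 are in the list of G2 and mitosis genes and 1 in that of S phase. In sh_scramble 2 of the 16 passed the adjusted p in the same direction below 1.5-fold, among them HELLS (0.38, adjusted p = 0.0191). BUB1B serves the spindle checkpoint, CENPI the centromere, ASPM, NUSAP1 and GPSM2 the spindle, CEP78 and CNTLN the centrosome, CDK1 entry into mitosis, HELLS and NASP chromatin assembly and FANCD2 repair of crosslinked DNA. BUB1B was at 66.2, 79.0 and 74.7 CPM without and 71.8, 92.3 and 91.2 CPM with DHT in sh_scramble. In sh_TMEFF2 it was at 62.8, 52.3 and 79.0 and 121, 129.8 and 149 CPM. The sh_TMEFF2 libraries with DHT were above all others, and the other 3 groups overlapped (difference 0.83 ± 0.20, adjusted p = 0.0341). FANCD2 went from 42.5, 42.0 and 52.8 to 68.2, 85.8 and 109 CPM in sh_TMEFF2 and lay between 54.5 and 68.6 CPM in all 6 sh_scramble libraries (difference 0.99 ± 0.22, adjusted p = 0.0229). Of its sh_TMEFF2 libraries with DHT 2 stood above the sh_scramble range and 1 lay inside it, and those without DHT lay below it. Over the 16 genes the median level in sh_TMEFF2 against sh_scramble was -0.33 without and 0.58 with DHT. The level was called for 1 of the 16, lower, without DHT (0.571% of all genes). With DHT it was called for 7, all higher (6.77% of all genes). The calls of BUB1B and FANCD2 were lost in 7 and 6 of the 12 fits that leave out 1 library. Those of ASPM, G2E3 and GPSM2 were lost in 7, 8 and 9 of these fits, and that of HELLS in 0. BUB1B shares exons with BUB1B-PAK6 and PAK6 on its strand, and counts can be split between them.

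Of 44 genes of G2 and mitosis, 6 had a higher response in sh_TMEFF2 and 0 a lower one, against 1.65% and 3.29% of all genes. All 44 differences were above 0, with a median of 0.65 (0.0062 over all genes). DHT raised 1 of them in sh_scramble and 40 in sh_TMEFF2, against 5.45% and 3.28% of all genes. An unadjusted p under 0.05 for the difference was seen for 36 of them, and for 2704 of all 15419 genes. Of 45 genes of DNA replication and S phase, 1 was called (HELLS, 0.75 ± 0.15), near the share of 1.65% called higher among all genes. For 44 of 45 the difference was above 0, and the median was 0.36. DHT raised 12 of the 45 in sh_scramble and 39 in sh_TMEFF2, against the same shares of 5.45% and 3.28%. The 1 called S phase gene became 5 with DESeq2, 7 without sh_TMEFF2 without DHT replicate 3 and 0 with first columns only. The median responses in sh_scramble and sh_TMEFF2 were 0.21 and 0.88 for G2 and mitosis and 0.50 and 0.86 for S phase. The count for G2 and mitosis depends on single libraries and on the tool. It was 0 without any 1 of 6 libraries (sh_scramble without DHT replicates 2 and 3, sh_scramble with DHT replicate 1, sh_TMEFF2 without DHT replicates 1 and 2 and sh_TMEFF2 with DHT replicate 3), 1 without sh_scramble with DHT replicate 3 or sh_TMEFF2 with DHT replicate 2, 10 without sh_scramble with DHT replicate 2 and 23 without sh_TMEFF2 without DHT replicate 3. With DESeq2 it was 18, with a replicate block 19 and with no filter 17. It was 8 with library size only and 6 with limma-voom. With first columns only it was 2, with second columns only 5, and for differences of at least 1.5-fold 5. The median difference of the list was 0.55 to 0.86 over the 12 fits that leave out 1 library each.

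The CHR, TTTGAA, to which repressor and activator complexes of cell cycle genes are known to bind, was found in 20 of 38 promoters of G2 and mitosis genes (52.6%), in 5 of 14 of the genes raised in sh_TMEFF2 alone (35.7%) and in 8.5% of all 11010. In MMP7, which is not a cell cycle gene, it was found 2 times. The E2F forms TTTGGCGC and TTTCCCGC were found in 18.4% and 23.7% of 38 promoters of S phase genes, and in 0.9% and 2.1% of all. Many members of both lists are known for such elements. Of the lost raised promoters 8.1% held the CHR.

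MMP7, a matrix metalloproteinase (chromosome 11, 102520508 to 102530750, minus strand), was at 8.82, 6.63 and 10.2 CPM without and 7.92, 6.25 and 7.05 CPM with DHT in sh_scramble, and at 2.98, 2.48 and 4.73 and 7.13, 5.84 and 8.68 CPM in sh_TMEFF2. The sh_TMEFF2 libraries without DHT were the lowest, and those with DHT overlapped both sh_scramble groups (difference 1.36 ± 0.34, adjusted p = 0.038). BCL2, which blocks cell death, was at 2.26, 3.14 and 2.18 CPM without and 5.69, 4.43 and 5.16 CPM with DHT in sh_TMEFF2 (difference 1.33 ± 0.31, adjusted p = 0.0292). Its columns were over 2-fold apart in 1 library. The calls of MMP7 and BCL2 were each lost in 9 of the 12 fits that leave out 1 library, and their adjusted p were up to 0.11 and 0.312 over all alternatives run.

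SDK2, with the largest difference of the class (8.07 ± 1.63), rests on single columns. In the sh_TMEFF2 libraries with DHT, SDK2 had 1 and 218, 3 and 107, and 118 and 2 estimated counts in the first and second column, and in sh_scramble without DHT replicate 1 it had 112 and 6. PCDH17 had its columns over 2-fold apart in 3 libraries. Over all genes tested, 1690 (11.0%) had columns over 2-fold apart, after adding 10 to each count, in at least 1 library, and among the 761 called it was 41.

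All 6 genes called as lowered in sh_TMEFF2 alone (ARFGAP2, CH17-13I23.3, ITSN1, PPP1R7, RP11-632K20.7 and UNKL) had the second column over 2-fold above the first in each of the 3 sh_TMEFF2 libraries without DHT. ARFGAP2, a GTPase-activating protein of COPI vesicles, had 622, 755 and 661 counts in the first column and 9119, 4950 and 3428 in the second. In the other 9 libraries both columns lay between 470 and 721. PPP1R7, a regulatory subunit of protein phosphatase 1, had 699, 901 and 733 in the first column and 3277, 2560 and 3091 in the second. With the first columns alone the difference of ARFGAP2 was -0.063 in place of -2.38, and that of PPP1R7 -0.31 in place of -1.67. A second column over 2-fold above the first in all 3 libraries was seen for 12 genes in sh_TMEFF2 without DHT and for 3 or 4 in each of the other groups. Without the genes whose columns differ so far, an alternative chosen after seeing the data, the number lowered in sh_TMEFF2 alone was 0, and the lost raised and lost lowered genes were 299 and 169.

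**Figure D5:**
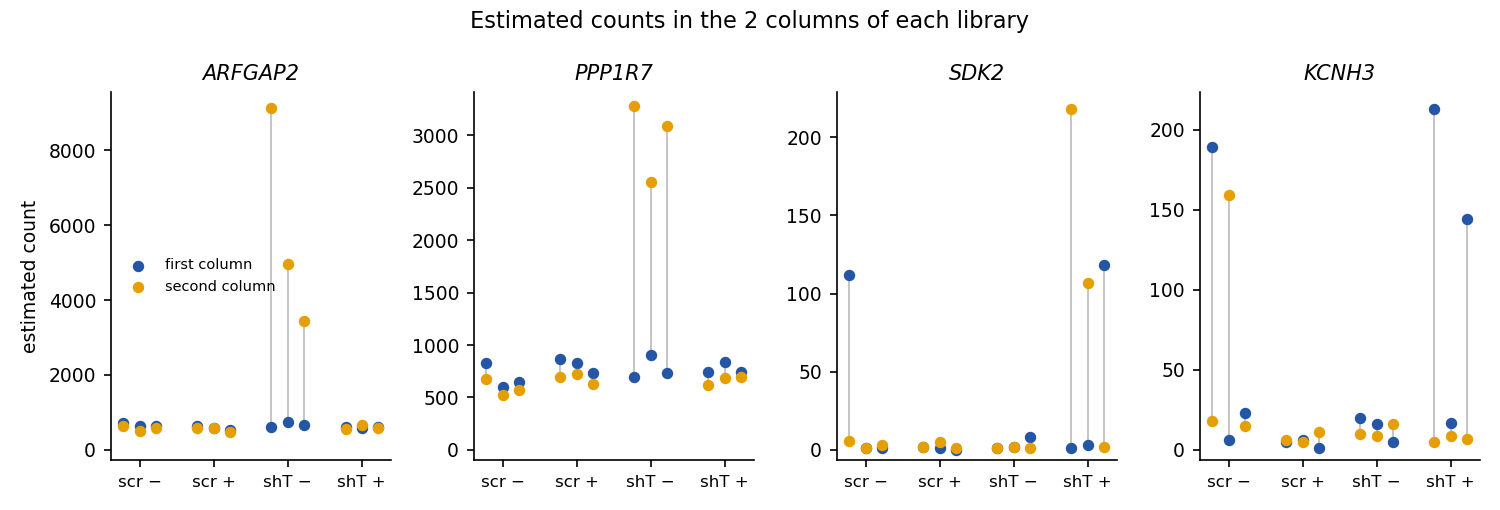
Estimated counts in the first (blue) and second (orange) column of each library for 4 genes, with grey lines joining the 2 columns of a library and linear axes, in the order sh_scramble (scr) without and with DHT and sh_TMEFF2 (shT) without and with DHT. ARFGAP2 and PPP1R7 are high in the second column of the 3 sh_TMEFF2 libraries without DHT alone, and SDK2 and KCNH3 are high in 1 column of 4 libraries each.

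Of the 4 genes with opposite responses, KCNH3 and LAIR1 had columns over 2-fold apart, in 5 and 1 libraries. KCNH3, a potassium channel, had 189 and 18 counts in the columns of sh_scramble without DHT replicate 1 and 6 and 159 in those of replicate 2. PRKCA, a protein kinase C, was at 22.9, 18.3 and 23.7 CPM without and 39.2, 34.9 and 25.7 CPM with DHT in sh_scramble. The sh_TMEFF2 libraries had 21.2, 24.2 and 20.4 CPM without and 12.9, 13.8 and 17.1 CPM with DHT. It was higher with DHT in sh_scramble and lower with DHT in sh_TMEFF2, with no overlap in either line, a difference of -1.20 ± 0.23 (adjusted p = 0.00949). ZPLD1 had -0.83 and 0.75 (difference 1.57 ± 0.33, adjusted p = 0.0171).

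Of the 208 genes with no called response in either line, 155 had a lower and 53 a higher response in sh_TMEFF2. Responses of opposite sign were seen for 139 of them and for 4319 of all 15419 genes. Picking genes with a called difference and no called response favours opposite signs. The largest differences above 5 CPM were those of KITLG (1.21 ± 0.32), the ligand of the receptor KIT, DSEL (1.0 ± 0.21) and MFSD2A (-0.89 ± 0.22), a lysophospholipid carrier. The calls of KITLG and MFSD2A were lost in 8 and 10 of the 12 fits that leave out 1 library, and that of DSEL in 0. Adhesion genes gave 2 higher and 2 lower of 20, against 1.65% and 3.29% of all genes, and 1 or 2 higher and 1 to 3 lower without 1 library. TPM1 (-0.77 ± 0.085), an actin-binding tropomyosin, and VCL (-0.38 ± 0.081), vinculin, were lower, and THBS1 (0.52 ± 0.11), an extracellular glycoprotein, and ITGA3 (0.75 ± 0.19), an integrin chain, were higher. The call of ITGA3 was lost in 9 of the 12 fits that leave out 1 library. Of 13 steroid enzymes 1 was higher, UGT2B17, and 1 lower, HSD17B4 (-0.42 ± 0.084), and of 25 glycolysis and hypoxia genes 1 was lower, HK1 (-0.53 ± 0.11), the hexokinase, each read against the same shares of 1.65% and 3.29%.

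Several large gene groups had few or no calls. Of 27 ribosome biogenesis genes, 30 respiratory chain genes and 14 early growth response genes, 0 were called by edgeR's quasi-likelihood test and 0 by DESeq2, and 0, 0 and 1 had an unadjusted p under 0.05. Their median differences were 0.049, 0.020 and -0.095. Of 29 interferon and antigen presentation genes 2 were called, NLRC5 and B2M. Among all genes tested 4.94% were called, and 2704 of 15419 had an unadjusted p under 0.05.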

How the data were processed

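RNA of 12 LNCaP libraries was sequenced as paired reads. Per the labels and the study's methods, the authors trimmed reads with Trimmomatic (at least 15 bases), quantified transcripts with kallisto 0.42.3 against GRCh38 (with bias correction) and deposited estimated counts per gene symbol from tximport, scaled by transcript length and library size, as 2 columns for each library. What the 2 columns of a library are is not given in the sources used here. Library strand is not stated either, so overlapping and antisense genes cannot be told apart.

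The 24 columns were summed to 12 libraries and rounded. Genes with low counts were removed with edgeR's filterByExpr (minimum count 10, minimum total 15), library factors came from the trimmed mean of M values (0.955 to 1.037), and 1 model over the 4 groups was fitted with the quasi-likelihood test of edgeR 4.0.16 (R 4.3.3). SE is the estimate divided by the square root of F. P-values were two-sided and adjusted by Benjamini and Hochberg over all 15419 genes, with limits of 0.05 and 1.5-fold. They measure the spread between 3 libraries a group, which came from 2 transductions. The fit was also run on simulated counts as a check of the code, and the outcome is not given here. Replicate numbers were not used as pairs.

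Named genes were TMEFF2, the called genes with the largest difference in each class at 5 CPM or more in some group (8 lost raised, 6 lost lowered, 6 gained raised, 4 gained lowered, 4 kept, 4 opposite and 3 with no called response) and up to 3 called members of each list in each direction by smallest p. Some genes that these rules name are not reported here. Further list members were named as examples after their values were seen. Members and lists were chosen with earlier results of these data known. Alternatives were DESeq2 1.42.0, limma-voom 3.58.1, library size only, other filters, a replicate block, other limits, single columns and leaving out each library. Promoters (RefSeq, GRCh38.p14) matched 11010 of 15419 tested genes. Gene positions are from GENCODE v44, where 66 of 69 named genes were placed. Precision is set by counting error and the spread between libraries.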

Additional observations from a re-analysis of the deposited data

Results flagged for a closer look

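The response to DHT differed between the lines by the test of the difference for 761 genes, 254 higher and 507 lower in sh_TMEFF2, and each gene named here passed that test (log2, response in sh_TMEFF2 minus response in sh_scramble). A response counts as called at 1.5-fold and an adjusted p of at most 0.05, and some genes of the first classes passed the adjusted p in the other line below 1.5-fold. Groups of 3 libraries are too small for a test of single libraries that stand apart.

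Genes called as raised by DHT in sh_scramble and not in sh_TMEFF2 had STEAP4 -4.72, MAF -2.92, CSGALNACT1 -2.71, ACSM1 -2.39, CECR6 -2.31, AKNA -2.15, UGT2B11 -2.08 and SGK1 -2.07. From the lists, the same class had GADD45B -1.42, CREB3L4 -1.0, the ER genes DNAJB9 -1.36, DNAJC3 -0.84, HYOU1 -0.91, SSR3 -0.96, SEC61G -0.73 and KDELR2 -0.71, and the lipid genes HMGCS1 -1.22, SQLE -0.70, ACLY -0.58 and VLDLR -0.76. It also had TPM1 -0.77, B2M -0.69 and HSD17B4 -0.42.

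Genes called as lowered in sh_scramble and not in sh_TMEFF2 had ABCA1 2.93, NLRC5 2.91, GLP1R 2.09, UGT2B17 2.05, PKIB 1.84, SYTL2 1.79, ACKR3 1.60, SESN1 1.05, ITGA3 0.75 and BTG2 0.51. Genes that responded in both lines, less in sh_TMEFF2, had CCDC141 -4.50, ORM1 -3.09, HPGD -2.98, CHRNA2 -2.79, FKBP5 -2.50, UGT2B28 -2.45, ACSL3 -1.98, ELOVL5 -0.75 and, among lowered genes, CAMK2N1 1.40.

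Genes called as raised in sh_TMEFF2 and not in sh_scramble had SDK2 8.07, MMP7 1.36, BCL2 1.33, FANCD2 0.99, GPSM2 0.95, ASPM 0.91, BUB1B 0.83, HELLS 0.75 and G2E3 0.51. Genes called as lowered there and not in sh_scramble had CH17-13I23.3 -5.28, ARFGAP2 -2.38, RP11-632K20.7 -1.86 and PPP1R7 -1.67, all of them with discordant columns. Opposite responses gave KCNH3 5.86, ZPLD1 1.57 and PRKCA -1.20. Genes with no called response in either line had KITLG 1.21, DSEL 1.0, NCOA1 0.55, THBS1 0.52, ZMAT3 0.33, MFSD2A -0.89, HK1 -0.53 and VCL -0.38.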

How the results depend on the processing

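Of 69 named genes 68 were called. Of these, 36 stayed past the limit in every alternative in which they were scored, and 46 in every fit that left out 1 library. Single genes were not scored for differences of at least 1.5-fold, responses by adjusted p alone or without discordant genes. A gene that a fit did not test was not counted against it. CH17-13I23.3 was scored in 20 alternatives and lost its call in 0. In sh_TMEFF2 without DHT it had 4, 4 and 6 counts in first columns and 441, 480 and 368 in second ones. RP11-632K20.7 turned from -1.86 to 0.15 with first columns only (adjusted p = 0.874). The count of genes with a higher response (254) was 475 with DESeq2, 432 with a replicate block, 169 with first and 148 with second columns only, and that with a lower response (507) was 307 for differences of at least 1.5-fold. Genes raised in sh_TMEFF2 alone (16) were 58 with DESeq2, 32 with no filter, 65 with the block and 27 without genes whose columns differ over 2-fold, an alternative chosen after seeing the data. Genes lowered there alone (6) were 12 with no filter, 10 with the block, 18 for responses by adjusted p alone, 2 with first columns only and 0 without discordant genes. Lost lowered genes (154) were 95 and genes kept in both lines (83) 53 with second columns only, and 180 were kept for responses by adjusted p alone. DESeq2 shared 737, limma-voom 688 and the block 754 of the 761 genes. The numbers were not shown to pair the libraries, since correlations of the deviations of same-numbered libraries were -0.00172 to 0.169 over 18 pairs, 17 of them above 0 and 3 over 0.1, the limit that every pair had to pass. All 12 libraries were on average closest to those of their own number, a hint from the data and not from the design. With the block, 18 cholesterol, 6 S phase and 19 G2 and mitosis genes were called. TMEFF2 was lower in sh_TMEFF2 in 6 of 6 same-numbered comparisons and lowest in replicate 2 of all 4 groups. In the block fit its level in sh_TMEFF2 against sh_scramble was -0.47 without DHT (adjusted p = 0.124) and -0.40 with it (adjusted p = 0.0689), a fit chosen after seeing the data. Leaving out 1 library gave 127 to 294 higher, 329 to 471 lower, 209 to 287 lost raised, 86 to 153 lost lowered, 56 to 73 kept, 2 to 86 raised in sh_TMEFF2 alone and 5 to 19 lowered there alone.

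The higher count moved past 1.5 times without sh_scramble without DHT replicates 1 (159) and 2 (127), sh_scramble with DHT replicate 1 (160), sh_TMEFF2 without DHT replicates 1 (165) and 2 (152) and sh_TMEFF2 with DHT replicate 1 (148), and the lower one without sh_scramble with DHT replicate 1 (329). Lost lowered genes did so without sh_scramble without DHT replicates 1 (102) and 2 (87) and sh_TMEFF2 with DHT replicate 1 (86). Genes raised in sh_TMEFF2 alone did so without sh_scramble without DHT replicates 2 (3) and 3 (6), sh_scramble with DHT replicates 1 (4) and 3 (9), sh_TMEFF2 without DHT replicates 1 (5), 2 (2) and 3 (86) and sh_TMEFF2 with DHT replicate 3 (4), and genes lowered there alone without sh_TMEFF2 without DHT replicates 1 (19) and 3 (15). The cause of these moves was not tested. Fits without a library hold fewer samples. Depth limits calls among genes of low count, where the SE is largest.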
